A study of Mus musculus with 21 samples.

Results

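The data give the levels of 10 receptor genes, for cytokines other than IL-2, in CD4+ T cells after a single peptide immunization: Il7r, Il4ra, Il6ra, Il6st, Il1r1, Il18r1, Il27ra, Ifngr1, Tgfbr1 and Tgfbr2. They were chosen by gene name from the log-transformed expression table, and all 10 were found among its 15249 genes and among the 47643 genes of the count table. The cells came from the spleens of Tg4 Tiger Nr4a3-Tocky mice. Tg4 is a transgenic T cell receptor specific for a peptide of myelin basic protein (MBP), Tiger is a GFP reporter of Il10, and Nr4a3-Tocky drives a Timer protein from Nr4a3 that is blue when new and red when mature. All 7 groups of 3 mice carried these transgenes. The control group was untreated, and the other groups received 0.8 µg or 80 µg of the 4Y variant of the MBP peptide under the skin and were taken 4 h, 12 h or 24 h later. Per the study's methods no adjuvant was given, both sexes were used, and cells were sorted as Blue+Red− at the first time, as Blue+Red+ at the second and as Blue−Red+ at the last, so that time and gate cannot be told apart. The gate used for the control cells was not given in the sources used here. The cells share 1 transgenic receptor and stand for a single specificity.

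Cytokine receptors are built from a chain that recognises the ligand and a chain, often shared between cytokines, that completes the signal. IL-7 receptor and IL-4 receptor chains pair with the common gamma chain (Il2rg), IL-6 and IL-27 receptors signal through gp130 (Il6st), IL-1 and IL-18 receptors each need an accessory chain (Il1rap, Il18rap), the interferon-gamma receptor is made of Ifngr1 and Ifngr2, and TGF-beta is bound by Tgfbr2, which recruits Tgfbr1. IL-7 receptor is a hallmark of resting T cells, which depend on IL-7 to survive, and TGF-beta restrains T cell activation.

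Sequences before RefSeq starts of 4 genes that were called between doses are shown here so that the measured changes can be set beside the DNA they belong to. For Il6st and for the first of 2 starts of Il1r1, the 250 bases before the RefSeq start (build GRCm38.p6) are given on the gene's strand, at chr13:112463820-112464069 and chr1:40224830-40225079, both on the plus strand. Capitals mark GGAAA or its complement, the core letters bound by NFAT.
Il6st: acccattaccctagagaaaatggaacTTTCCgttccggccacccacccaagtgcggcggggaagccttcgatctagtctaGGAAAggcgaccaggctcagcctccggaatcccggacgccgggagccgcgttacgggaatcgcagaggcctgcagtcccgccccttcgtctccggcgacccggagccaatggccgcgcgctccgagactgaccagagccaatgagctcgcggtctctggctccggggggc
Il1r1: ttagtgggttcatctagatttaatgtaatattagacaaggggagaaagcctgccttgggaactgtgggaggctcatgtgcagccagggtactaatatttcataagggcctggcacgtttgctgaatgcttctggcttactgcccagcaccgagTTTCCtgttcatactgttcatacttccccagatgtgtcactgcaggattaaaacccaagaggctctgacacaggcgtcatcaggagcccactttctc

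The Il6st stretch holds 2 matches, whose first bases lie 224 and 170 bases before the start, and that of Il1r1 holds 1, at 97 bases, while the window before the other Il1r1 start holds 0. Matches were also found before Il7r (121 bases), Il4ra (221), Tgfbr2 (237) and each of 3 starts of Il18r1 (73, 142 and 32). None was found before Il6ra, Ifngr1 or Tgfbr1. On both strands, 55.6% of 32851 mouse promoters of this length hold GGAAA, so a match is common. A rarer spacing, TTCNNNGAA, which STAT factors recognise, occurs in 7.02% of them. Among the 9 members with a promoter in the RefSeq table it was found in Il7r, 142 bases before the start, and at 219 and 152 bases before the last of 3 starts of Il18r1. These stretches lie before RefSeq starts but inside the wider gene bounds that GENCODE gives for Il7r and Il18r1. They are printed with the motif in capitals, from chr15:9530000-9530028 on the minus strand and from chr1:40465777-40465805 and chr1:40465844-40465872 on the plus strand.
Il7r: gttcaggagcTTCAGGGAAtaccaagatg
Il18r1 first: tcggggttagTTCTGGGAActgtggagct
Il18r1 second: agtacaggtcTTCCCAGAActgaaagctt

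Also searched on both strands were TGANTCA (AP-1, 6.75% of promoters), GTAAACA (FOXO, 3.17%), GCGNGGGCG (EGR, 4.7%) and TGTGGT (RUNX, 14%). Of these only the EGR letters were found in a member, in Tgfbr1 at 192 bases before the first start. A match is a description of letters and says nothing of binding in these cells.

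A gene was called changed when DESeq2 gave a Benjamini-Hochberg adjusted p under 0.05 over all genes tested and an absolute log2 fold change, shrunken toward 0 with a normal prior, above 1. Levels are counts divided by DESeq2 size factors (normalised counts), and they are compared between groups for 1 gene, not between genes. The RNA is from bulk sorted cells, in which fewer cells of a kind and less RNA per cell cannot be told apart. Library totals ran from 2352800 to 6244279 counts. CD4 T cell markers were high in every library, their summed level lying between 1540 and 1650 CPM (counts scaled to library size) in the control group and between 497 and 526 in the 80 µg group at 4 h, the lowest of the 7 groups. Dendritic cell markers summed to at most 2.46 and neutrophil markers to at most 3.84 CPM, while myeloid, CD8 T cell and erythroid markers reached 30.4, 51.3 and 195 CPM in single libraries. B cell markers summed to 37.8 to 80.6 CPM in control and to 13.2 to 31.9 (0.8 µg) and 10.8 to 15.3 (80 µg) at 4 h. They were lower than in control at 4 h, like the members called lower at that time. Regulatory T cell markers (62.2 to 113 CPM in control, 19 to 25 and 25.3 to 34.4 at 4 h) and NK cell markers (17.2 to 25.3 in control, at most 1.28 at 4 h) were also lower at 4 h. The part of these markers in the falls from control was not tested.

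In each comparison with control cells, 5 to 7 of the 10 members were called lower after peptide. With 0.8 µg, 5 of the 10 members were called at 4 h, when 40.7% of all genes tested were called (23.4% lower), 7 at 12 h (37.7% of all genes, 20.5% lower) and 5 at 24 h (17.3%, 5.84% lower), and each of these member calls was a decrease. At 4 h Il1r1 was also called lower with 0.8 µg with another count filter (adjusted p = 0.0479), without control replicate 2 (0.0151) and without replicate 2 of the 0.8 µg group (0.0498). At 12 h it was also called with 0.8 µg, as an increase, in edgeR (1.40, adjusted p = 0.0343), with TMM factors (1.26, adjusted p = 0.0482), with another count filter (1.27, adjusted p = 0.0291) and without control replicate 3 or replicate 1 of the 0.8 µg group (adjusted p of 0.013 and 0.0474). With 80 µg, 7 members were called at 4 h (43.5% of all genes, 18.4% higher and 25.1% lower), 8 at 12 h (37.9%, 17.8% higher and 20.1% lower) and 6 at 24 h (20.2%, 12.3% higher and 7.91% lower). At each of these times 1 of the called members was an increase, Il6st at 4 h and Il1r1 at 12 h and 24 h. The median log2 change of the members was -1.86, -2.09 and -1.19 with 0.8 µg at 4 h, 12 h and 24 h, beside -0.13, -0.11 and 0 over all genes tested. With 80 µg it was -2.08, -1.71 and -0.85 (-0.15, -0.11 and 0.00 over all genes). These 6 comparisons share the 3 control libraries. Il7r, Il6ra and Tgfbr2 were called lower in all 6 comparisons, and Il4ra was called in none of them. Without replicate 3 of the 0.8 µg group at 24 h, Il4ra was called lower in that group (-1.003, DESeq2 adjusted p = 3.46e-09). Il27ra was also called lower there in the same fit (-1.02) and without control replicate 1 (-1.09).

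Between doses, the number of members called was highest at 4 h. With 80 µg against 0.8 µg, 4 of the 10 members were called at 4 h (5.85% of all genes, 3.12% higher and 2.74% lower), Il7r, Il6st and Il18r1 higher and Tgfbr2 lower. At 12 h 1 member was called, Il1r1, higher with 80 µg (2.79% of all genes, 1.83% higher). At 24 h 2 were called, Il1r1 and Il18r1, both higher with 80 µg (1.56% of all genes, 0.89% higher). The median log2 difference between doses was 0.38, 0.32 and 0.40 at the 3 times, beside -0.02, 0.01 and 0.02 over all genes. A likelihood ratio test in DESeq2 on the 18 immunized samples asked if the dose difference changed over the 3 times. It passed for Il7r and Il6st, 2 of 10 members, while 10.4% of 9958 genes passed. For Il18r1 the adjusted p was 0.103. It was 0.0288 or 0.048 without replicate 1 of the 0.8 µg or replicate 2 of the 80 µg group at 4 h, and 0.0491 without replicate 3 of the 0.8 µg group at 24 h.

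**Figure D1:**
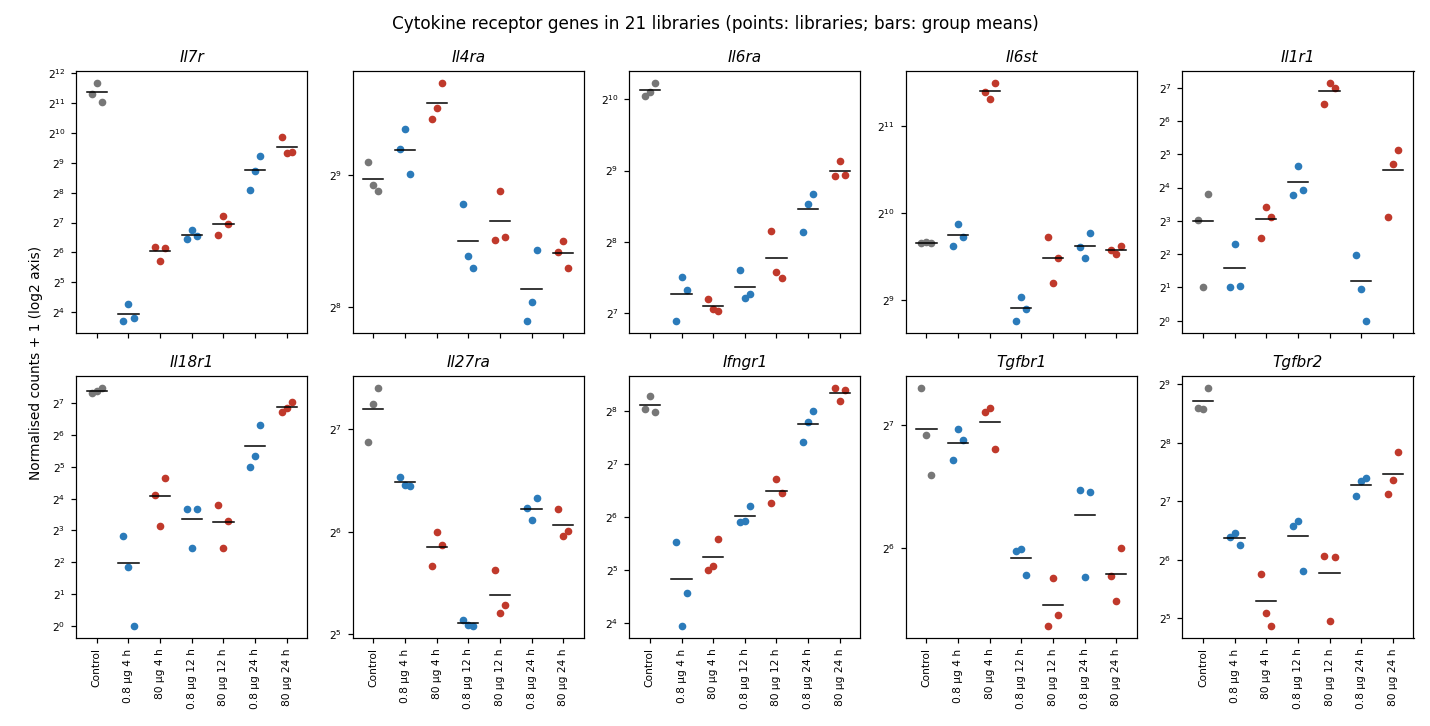
Normalised counts plus 1 (log2 axis, a separate range in each panel) of the 10 receptor genes in 21 libraries, by group along the horizontal axis. Points are libraries in grey (control), blue (0.8 µg) and red (80 µg), and bars are group means of 3 libraries. Il7r falls from 2627 in control cells to 14.5 with 0.8 µg at 4 h, Il6st stands highest with 80 µg at 4 h (2708) and Il1r1 with 80 µg at 12 h (119).

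Il7r (chr15:9505788-9530176, minus strand; coordinates of genes are from GENCODE vM21 on GRCm38) encodes the IL-7 receptor alpha chain. Control libraries held 2505, 3272 and 2104 normalised counts. At 4 h the level was 12.1, 18.4 and 12.9 with 0.8 µg and 71.8, 51.3 and 70.3 with 80 µg. All immunized libraries at 4 h lay far below all control libraries, and the doses did not overlap, the higher dose keeping more Il7r. The mean was 181-fold below control with 0.8 µg (log2 fold change -7.29 ± 0.33, SE; DESeq2 adjusted p = 3.05e-98) and 40.8-fold below with 80 µg (-5.25 ± 0.28, adjusted p = 7.01e-77). Of the 10 members this was the steepest fall in each dose.

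At 12 h Il7r stood at 86.3, 107.6 and 91.6 with 0.8 µg and at 95.9, 148 and 123 with 80 µg. At 24 h it stood at 274, 418 and 594 with 0.8 µg and at 924, 645 and 654 with 80 µg. The doses overlapped at 12 h and did not at 24 h, when the 80 µg libraries were higher, yet every library at 24 h was still below every control. The DESeq2 dose difference at 4 h was called, at 2.04 ± 0.35 on the log2 scale (adjusted p = 1.43e-07, 4.45-fold). Those at 12 h, 0.36 ± 0.28 (adjusted p = 0.602), and at 24 h, 0.78 ± 0.26 (adjusted p = 0.0548), were not. The change of the dose effect with time passed (adjusted p = 0.0013). At 24 h 1 library decided the call, since without replicate 3 of the 0.8 µg group the difference was 1.09 with an adjusted p of 3.79e-05. In the order of group means, control was followed by 80 µg 24 h, 0.8 µg 24 h, 80 µg 12 h, 0.8 µg 12 h, 80 µg 4 h and 0.8 µg 4 h, and only the 12 h doses overlapped as neighbours.

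Il4ra (chr7:125552120-125579474, plus strand) encodes the chain that binds IL-4 and, with another partner, IL-13. Its order of groups was unlike that of Il7r. Group means ranged from 751 ± 75.3 (SD, n = 3) with 80 µg at 4 h and 586 ± 70 with 0.8 µg at 4 h, over 501 ± 41.6 in control, to 280.5 ± 56.2 with 0.8 µg at 24 h. The lowest 80 µg library at 4 h (688) was above the highest 0.8 µg library (655) and the highest control (548). With 80 µg at 4 h the log2 change from control was 0.58 ± 0.15 (DESeq2 adjusted p = 0.000234), under the fold threshold, and at 24 h it was -0.84 ± 0.15 with 0.8 µg (adjusted p = 4.41e-07) and -0.57 ± 0.15 with 80 µg (adjusted p = 0.000764), again under the threshold. No dose difference passed for Il4ra, with adjusted p of 0.0989, 0.717 and 0.376 at the 3 times.

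The partner of both chains, Il2rg, had its own dose pattern. Its means were 1708 ± 127 (SD, n = 3) with 0.8 µg and 1020 ± 55.2 with 80 µg at 4 h, beside 1110 ± 99.7 in control. The log2 dose difference was -0.74 ± 0.11 at 4 h (DESeq2 adjusted p = 2.86e-10), -0.37 ± 0.11 at 12 h (adjusted p = 0.0198) and 0.28 ± 0.11 at 24 h (adjusted p = 0.116), none above the fold threshold. Thus at 4 h the group with the lower Il7r had the higher Il2rg. Crlf2, which joins Il7r in the receptor for TSLP, had no dose difference that passed, with log2 values from 0.12 to 0.61.

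Il6st (chr13:112464070-112510086, plus strand) encodes gp130, the signalling chain shared by the IL-6 cytokine family. Control libraries held 805, 811 and 801 normalised counts. At 4 h the level was 787, 931 and 845 with 0.8 µg, on both sides of the narrow control range, and 2692, 2541 and 2890.3 with 80 µg. Every 80 µg library at 4 h was thus far above every other library of the series. The log2 dose difference at 4 h was 1.66 ± 0.11 (DESeq2 adjusted p = 3.88e-48, 3.17-fold), and the change from control was 1.74 ± 0.11 with 80 µg (adjusted p = 1.19e-54) and 0.08 ± 0.11 with 0.8 µg (adjusted p = 0.565).

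By 12 h the Il6st level was 431, 522 and 476 with 0.8 µg and 842, 585 and 711 with 80 µg. The doses still did not overlap, and the 0.8 µg libraries lay below all controls. The dose difference was then 0.57 ± 0.11 on the log2 scale (adjusted p = 3.75e-05), under the fold threshold, and at 24 h it was -0.05 ± 0.11 (adjusted p = 0.884). At 24 h the libraries held 780, 711 and 870.3 with 0.8 µg and 762, 734 and 783 with 80 µg, and the doses overlapped. The test that the dose effect changes with time gave an adjusted p of 2.42e-21 for Il6st in DESeq2, the smallest among the 10 members.

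Il6ra (chr3:89864059-89913196, minus strand), the IL-6 binding chain, was called in the opposite direction to its partner in 1 group, 80 µg at 4 h. Control libraries held 1057, 1096 and 1201 normalised counts, and the 4 h libraries 118, 182 and 159.7 with 0.8 µg and 146, 133 and 129 with 80 µg. The fall was 7.3-fold with 0.8 µg and 8.22-fold with 80 µg, and the doses overlapped. With 80 µg at 4 h Il6ra had fallen by 3.02 ± 0.17 on the log2 scale (DESeq2 adjusted p = 1.53e-66) while Il6st had risen by 1.74. At 24 h Il6ra stood at 280.4, 370.2 and 406 with 0.8 µg and at 484, 559 and 487 with 80 µg, which did not overlap. The dose difference there was 0.53 ± 0.17 (adjusted p = 0.0272), under the fold threshold, and both groups were still called lower than control.

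Il27ra (chr8:84030294-84042589, minus strand) encodes the IL-27 binding chain, which also signals through gp130. Its group means were 145 ± 26.5 (SD, n = 3) in control, 88.4 ± 3.03 with 0.8 µg and 56.7 ± 6.62 with 80 µg at 4 h, 33.4 ± 0.773 and 40.8 ± 6.7 at 12 h, and 73.8 ± 5.71 and 66 ± 6.54 at 24 h. Its lowest levels thus came at 12 h, when the changes of -2.08 with 0.8 µg and -1.81 with 80 µg were called, and not at 4 h as for Il7r. At 4 h all 80 µg libraries were below all 0.8 µg libraries (log2 -0.63 ± 0.22, DESeq2 adjusted p = 0.0416, under the fold threshold). Of the other gp130 partners, Il11ra1 was measured at low levels with no dose difference that passed, and Lifr, Osmr and Cntfr did not pass the count minimum.

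**Figure D2:**
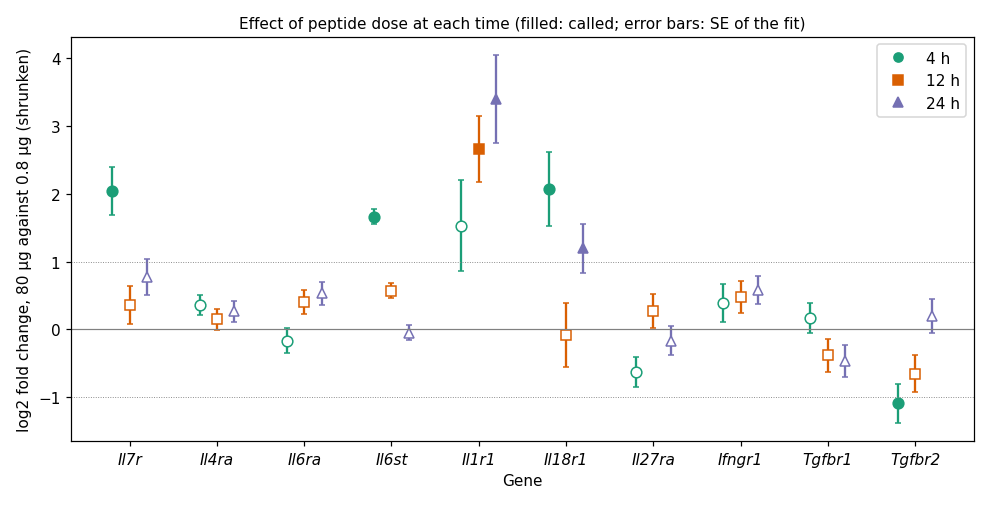
Shrunken log2 fold change of 80 µg against 0.8 µg (vertical axis) for each receptor gene (horizontal axis) at 4 h (circles), 12 h (squares) and 24 h (triangles), with the SE of the fit as error bars. Filled points are called, and dotted lines mark the fold threshold. Il7r, Il6st and Il18r1 are called above 0 and Tgfbr2 below 0 at 4 h, while Il1r1 has its called differences at 12 h (2.66) and 24 h. The fitted 24 h value of Il1r1 is no exact size, since its 0.8 µg libraries held at most 3 counts each and the fold is given in the text as a lower bound (7.55).

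Il1r1 (chr1:40225080-40317257, plus strand) encodes the IL-1 binding receptor. It was near the counting limit in most groups. Control libraries held 7.22, 1.01 and 12.8 normalised counts, and the 4 h libraries 1.01, 3.95 and 1.08 with 0.8 µg and 4.63, 9.69 and 7.72 with 80 µg. At 12 h the level was 12.7, 24.1 and 14.1 with 0.8 µg and 90.4, 141 and 126 with 80 µg. The 3 libraries of the 80 µg group at 12 h were the highest of the 21, and no other group overlapped them. The dose difference at 12 h was 2.66 ± 0.49 (DESeq2 adjusted p = 5.46e-06, 7.03-fold), and the rise from control with 80 µg was 3.90 ± 0.54 (adjusted p = 1.09e-11, 17-fold). The size rests on low control counts, the log2 change being 3.43 without control replicate 2 and 4.47 without control replicate 3.

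At 24 h the Il1r1 level was 2.92, 0.932 and 0 with 0.8 µg and 7.67, 25 and 33.9 with 80 µg. Every 0.8 µg library held at most 3 counts, so the fold is a lower bound against 3 counts per library, at least 7.55-fold higher with 80 µg (DESeq2 adjusted p = 0.000208). The fitted log2 difference was 3.40 and ranged from 1.00 with only the samples compared to 4.05 in edgeR, and the call held in each alternative. Against control at 24 h, Il1r1 was called higher with 80 µg (adjusted p = 0.0119) and lower with 0.8 µg (adjusted p = 0.0332, at least 2.39-fold). Both groups overlapped the control libraries, and both calls rested on single libraries: the first had an adjusted p of 0.116 without control replicate 2 and 0.112 without replicate 3 of the 80 µg group, and the second had 0.064 or 0.217 without control replicate 1 or 3 and 0.104 or 0.13 without replicate 2 or 3 of the 0.8 µg group. With only the samples compared, neither call against control held (adjusted p of 0.0616 with 80 µg and 0.177 with 0.8 µg). The accessory chain Il1rap did not follow Il1r1. It was called higher than control at 4 h with either dose (log2 1.05 and 1.07), and at 12 h its dose difference was -1.04 ± 0.42 (adjusted p = 0.133). Both chains were thus measured, but their highest group means came at different times, Il1rap at 4 h and Il1r1 at 12 h.

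Il18r1 (chr1:40465552-40500854, plus strand) encodes the IL-18 binding chain. Control libraries held 158, 164 and 178 normalised counts. At 4 h the level was 6.06, 2.63 and 0 with 0.8 µg and 16.2, 7.75 and 24 with 80 µg. At 12 h it was 11.8, 4.51 and 11.7 with 0.8 µg and 12.8, 4.4 and 8.75 with 80 µg. All of these libraries lay far below the controls, and the doses were apart at 4 h and overlapped at 12 h. At 24 h the level was 31.2, 39.2 and 79.5 with 0.8 µg and 105, 113 and 131 with 80 µg. The 80 µg libraries had by then come near the control range without reaching it, and the log2 change from control was -0.50 ± 0.35 (DESeq2 adjusted p = 0.263), against -1.69 ± 0.36 with 0.8 µg (adjusted p = 1.8e-05).

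The dose difference of Il18r1 was called at 4 h (2.07 ± 0.54, adjusted p = 0.00268) and at 24 h (1.20 ± 0.36, adjusted p = 0.0214). Both calls were lost with only the samples compared (log2 1.12 with an adjusted p of 0.0506 at 4 h, and 0.89 at 24 h). They were also sensitive to single libraries. Without replicate 3 of the 0.8 µg group at 4 h the adjusted p was 0.0646. At 24 h it was 0.159 or 0.148 without replicate 1 or 2 of the 0.8 µg group and 0.0534, 0.08 or 0.14 without replicate 1, 2 or 3 of the 80 µg group. NK cells also carry this receptor. Per the study's methods the cells were sorted as CD4+ T cells. The summed level of 4 NK cell markers moved in the same direction, from 17.2 to 25.3 CPM in control to at most 1.28 in the 4 h and 12 h groups and to 5.02 to 7.39 (0.8 µg) and 8.59 to 9.93 (80 µg) at 24 h. In control and with 80 µg at 24 h most of that sum was Klrd1 (means of 66.7 and 33.9 normalised counts). With 0.8 µg at 24 h Klrd1 had a mean of 8.78 and Klrb1c one of 11.97, against 2.19 for Klrb1c with 80 µg, while the defining marker Ncr1 averaged at most 0.688. Their part in the result was not tested.

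Il18rap (chr1:40515362-40551705, plus strand), the accessory chain of the IL-18 receptor, was called higher with 80 µg at the same times as Il18r1. At 24 h its level was 18.5, 16.8 and 14.5 with 0.8 µg and 82.2, 121 and 64.1 with 80 µg, beside 14.4, 17.2 and 32.8 in control. The 80 µg libraries at 24 h were therefore above all controls (log2 1.95 ± 0.51, DESeq2 adjusted p = 0.000845), unlike Il18r1 itself, and the dose difference was 2.28 ± 0.52 (adjusted p = 0.000802). At 4 h it was 2.32 ± 0.57 (adjusted p = 0.00125). There the groups overlapped, at 4.04, 9.22 and 4.32 with 0.8 µg against 66, 6.78 and 30 with 80 µg, and without replicate 1 of the 80 µg group the adjusted p was 0.0999.

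Il1r1, Il18r1 and Il18rap lie in a row with 3 relatives on chromosome 1, in the order Il1r2, Il1r1, Il1rl2, Il1rl1, Il18r1 and Il18rap, within 478 kb. The highest mean of Il1r1 came at another time than those of Il1rl1, Il18r1 and Il18rap. At 12 h with 80 µg Il1r1 was at its highest mean (119), whereas Il18r1 (8.65), Il18rap (5.83) and Il1rl1 (1.83) were far below their highest means. Il1rl1, the receptor for IL-33, held 0 counts in all 3 libraries with 0.8 µg at 4 h against 22, 3.87 and 7.72 normalised counts with 80 µg, at least 3.29-fold higher against 3 counts per library (DESeq2 adjusted p = 0.000948). That bound rests largely on the 80 µg library at 22. Il1r2, the decoy receptor for IL-1, had group means of 0 to 5.43 normalised counts.

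**Figure D3:**
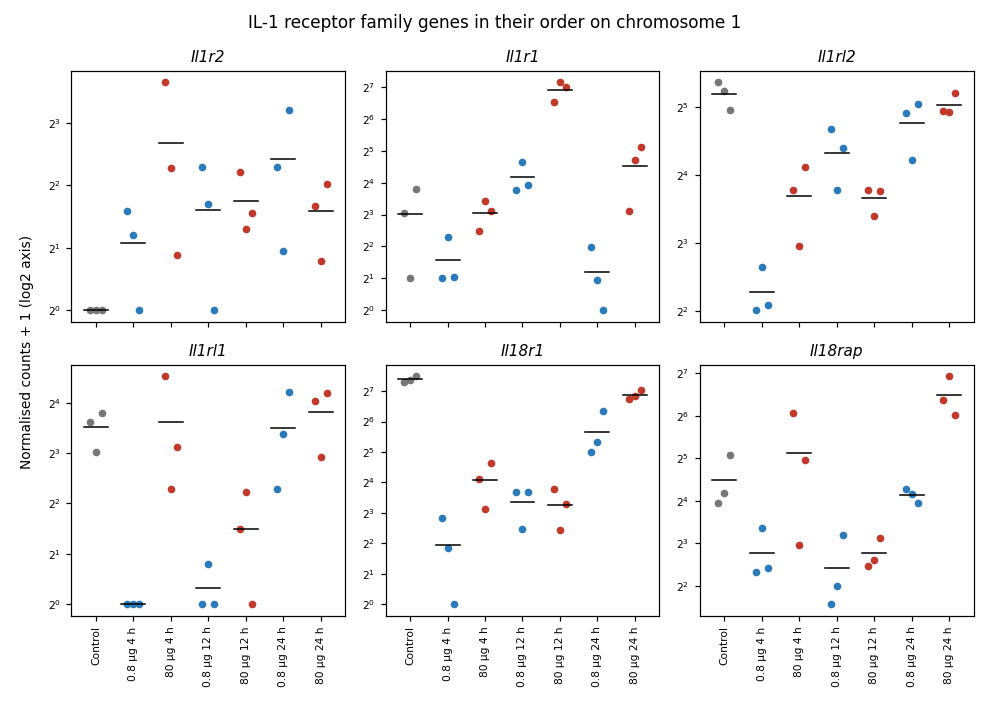
Normalised counts plus 1 (log2 axis, a separate range in each panel) of the 6 genes of the IL-1 receptor family, with panels in their order along chromosome 1 and groups along the horizontal axis. Points are libraries and bars are means of 3. Il1r1 has its highest mean with 80 µg at 12 h (119) and Il18rap with 80 µg at 24 h (89.2), while Il18r1 is highest in control (167).

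Ifngr1 (chr10:19591949-19610229, plus strand) encodes the interferon-gamma binding chain. Control libraries held 261, 311 and 253 normalised counts. At 4 h the level was 45.4, 14.5 and 22.7 with 0.8 µg and 31.3, 32.9 and 47.2 with 80 µg. At 24 h it was 170.4, 220.1 and 254 with 0.8 µg and 345, 289 and 334 with 80 µg. Both doses at 4 h were far below control and overlapped each other, and at 24 h the 80 µg libraries were above all 0.8 µg libraries and overlapped the control range. The fall at 4 h was called with 0.8 µg (log2 -3.23 ± 0.25, DESeq2 adjusted p = 2.62e-35) and 80 µg (-2.83 ± 0.24, adjusted p = 1.25e-31), as were those at 12 h (-2.09 ± 0.22 and -1.61 ± 0.21). At 24 h the changes from control were -0.35 ± 0.21 (adjusted p = 0.174) and 0.23 ± 0.20 (adjusted p = 0.398). No dose difference was called, and that at 24 h was 0.58 ± 0.20 (adjusted p = 0.0632).

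The partner chain Ifngr2 fell with it and came back less far. Control libraries held 111, 119 and 107 normalised counts, and at 24 h the level was 51.6, 53.2 and 80.5 with 0.8 µg and 30.7, 24.3 and 25.9 with 80 µg. Here the 80 µg libraries were the lower ones, the opposite order to Ifngr1, with no overlap. The log2 dose difference at 24 h was -1.17 ± 0.33 (DESeq2 adjusted p = 0.0107), and with 80 µg Ifngr2 was still 4.17-fold below control (adjusted p = 4.84e-09). Without replicate 3 of the 0.8 µg group the dose difference had an adjusted p of 0.129, and without replicate 2 or 3 of the 80 µg group 0.0676 or 0.0661.

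Tgfbr2 (chr9:116084293-116175360, minus strand) encodes the receptor kinase that binds TGF-beta. Control libraries held 386, 381 and 491 normalised counts. At 4 h the level was 82.8, 86.9 and 75.5 with 0.8 µg and 53.2, 32.9 and 28.3 with 80 µg. The 80 µg libraries were all below the 0.8 µg libraries, which were all below control, so that Tgfbr2 was the single member called lower with the higher dose. The log2 dose difference was -1.09 ± 0.28 (DESeq2 adjusted p = 0.00201), and it fell under the fold threshold without replicate 2 or replicate 3 of the 80 µg group (-0.98 and -0.90). The fall from control was 5.13-fold with 0.8 µg and 11-fold with 80 µg. At 24 h the level was 135, 162 and 168 with 0.8 µg and 138, 163 and 229.9 with 80 µg. These overlapped each other and stayed below all controls. The change of the dose effect with time had an adjusted p of 0.0519 in DESeq2, just outside the threshold. It was 0.0273 in edgeR and lay between 0.0152 and 0.0425 when 1 of 6 single libraries was left out (replicate 1 of the 80 µg group at 4 h or 24 h, replicate 3 of the 0.8 µg group or any replicate of the 80 µg group at 12 h).

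Tgfbr1 (chr4:47353222-47414931, plus strand), the kinase that Tgfbr2 recruits, did not share the early fall. Its means were 124 ± 30.7 (SD, n = 3) in control, 115 ± 10 with 0.8 µg and 129 ± 15.9 with 80 µg at 4 h, which all overlapped. At 12 h they were 59.4 ± 4.68 and 45.3 ± 6.67, below all controls, and both decreases were called (log2 -1.05 ± 0.24 and -1.43 ± 0.24, DESeq2 adjusted p = 2.75e-05 and 1.01e-08). The decrease with 0.8 µg lay close to the fold threshold and was under it without control replicate 1 (-0.85) or replicate 3 of the 0.8 µg group at 12 h (-0.99). It was also under the threshold with only the samples compared (-0.97). At 24 h the decrease with 80 µg was called (-1.18 ± 0.23, adjusted p = 3.26e-06; -0.97 without control replicate 1). No dose difference passed for Tgfbr1. Tgfbr3, the co-receptor betaglycan, fell 14.3-fold with 0.8 µg and 22.2-fold with 80 µg at 4 h, and at 12 h it was lower with 80 µg (-0.98 ± 0.27, adjusted p = 0.00768), just under the fold threshold and past it when replicate 2 or 3 of the 0.8 µg group or replicate 1 or 3 of the 80 µg group was left out (-1.02 to -1.26).

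**Figure D4:**
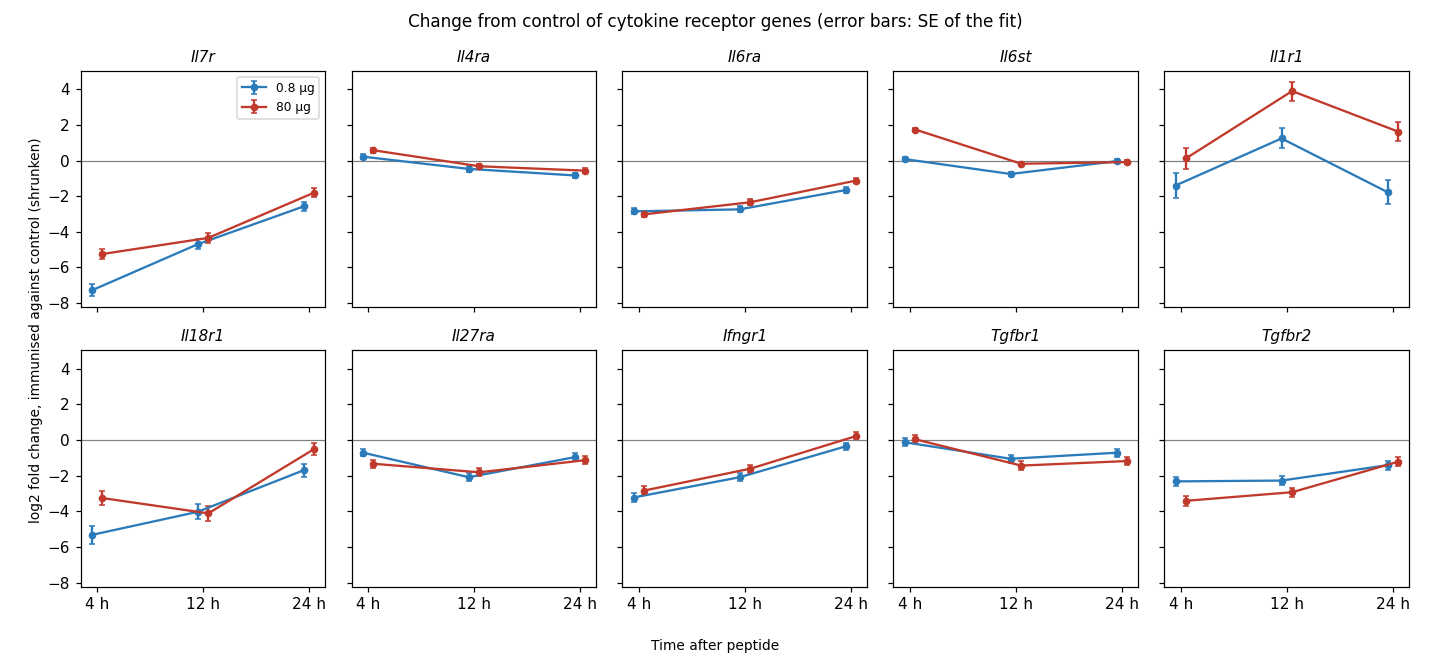
Shrunken log2 fold change from control (vertical axis, shared by all panels) of each receptor gene at 4 h, 12 h and 24 h (horizontal axis) with 0.8 µg (blue) and 80 µg (red), with the SE of the fit as error bars. Il7r, Il6ra, Il18r1, Ifngr1 and Tgfbr2 are lowest at 4 h or 12 h and nearer to 0 at 24 h, whereas Tgfbr1 is near 0 at 4 h.

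Between consecutive times at the same dose, members moved in both directions. From 4 h to 12 h 5 members were called with 0.8 µg (20.5% of all genes, 12.6% higher and 7.98% lower), Il7r, Il1r1, Il18r1 and Ifngr1 higher and Il27ra lower. With 80 µg 4 were called (24.8%, 15.7% higher and 9.1% lower), Il1r1 and Ifngr1 higher and Il6st and Tgfbr1 lower. The step of Il18r1 with 0.8 µg was between overlapping groups (adjusted p = 0.0453) and was not called without replicate 2 or 3 at 4 h or without replicate 1 or 3 at 12 h (adjusted p from 0.0985 to 0.273), in edgeR (0.0735) or with only the samples compared (0.229), and that of Ifngr1 was under the fold threshold without replicate 2 or 3 at 4 h (0.85 and 0.98). From 12 h to 24 h 6 members were called with each dose (26.6% of all genes with 0.8 µg, 17.1% higher and 9.48% lower, and 27.2% with 80 µg, 16.7% higher and 10.5% lower), 5 higher and 1 lower. Il7r, Il6ra, Il18r1 and Ifngr1 were among the 5 called higher from 12 h to 24 h with either dose, and Il1r1 was the one called lower in both. The rise of Il6ra with 0.8 µg was under the fold threshold without replicate 3 at 24 h (0.98). The largest of the rises from 12 h to 24 h was that of Il18r1 with 80 µg, 3.62 ± 0.41 on the log2 scale (DESeq2 adjusted p = 1.18e-16, 13.5-fold). Il6st with 80 µg fell by 1.92 ± 0.11 from 4 h to 12 h (adjusted p = 4.63e-66).

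Markers also stood apart between doses. At 4 h the regulatory T cell sum was 19 to 25 CPM with 0.8 µg and 25.3 to 34.4 with 80 µg (Foxp3 means of 3.92 and 17.8 normalised counts), and the CD4 T cell sum 908 to 958 and 497 to 526. The summed level of Foxp3, Ikzf2 and Capg was 112 to 142 CPM with 0.8 µg and 41.6 to 60.2 with 80 µg at 12 h. At 24 h it was 335 to 619 CPM with 0.8 µg and 198 to 226 with 80 µg, beside 62.2 to 113 in control. Ikzf2 carried the 24 h difference (means of 1454 and 584 normalised counts), Foxp3 had means of 106 and 92.9, and Capg went the other way (79.9 and 168). The sum of Cd8a and Cd8b1 was 43.6 to 51.3 CPM with 0.8 µg and 13.1 to 22.7 with 80 µg at 12 h, and 34.3 to 40.9 against 20.1 to 28.8 at 24 h, with Cd8a means of 53.8 and 3.84 normalised counts at 12 h. B cell markers at 24 h summed to 27 to 36.3 CPM with 0.8 µg and 7.53 to 16 with 80 µg. The part of these markers in the dose differences of Il7r, Il6st, Il18r1 and Tgfbr2 at 4 h, of Il1r1 at 12 h and 24 h and of Il18r1 and Il6ra at 24 h was not tested.

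Other genes of these pathways were described from 5 lists. Of 11 partner chains 7 were tested between doses. At 4 h 1 was called (Il18rap, higher) and at 24 h 2 (Il18rap higher, Ifngr2 lower), when 5.85% and 1.56% of all genes were. At 12 h 0 were called (2.79% of all genes), while Il2rg and Tgfbr3 had an adjusted p under 0.05 with a fold under the threshold. Of 4 decoys and antagonists 2 were tested at 4 h, both with an adjusted p above 0.05. Of 33 other cytokine receptors 18 were tested at 4 h, and 7 were called higher and 1 lower with 80 µg, when 3.12% and 2.74% of all genes were. At 12 h 2 of 18 were called and at 24 h 2 of 14, all higher (1.83% and 0.89% of all genes). Il12rb2, a chain of the IL-12 receptor, was among those called, with 80 µg exceeding 0.8 µg at least 14.2-fold at 4 h and 8.03-fold at 24 h (DESeq2 adjusted p = 1.75e-06 and 6.4e-06). The IL-10 receptor chains differed in sign at 4 h, Il10ra with a log2 difference of 1.70 ± 0.51 (adjusted p = 0.0116) and Il10rb with -1.22 ± 0.29 (adjusted p = 0.000396). Il10ra was not called at 4 h without replicate 2 or 3 of the 0.8 µg group or replicate 1 of the 80 µg group (adjusted p of 0.0975, 0.146 and 0.0553). Il10rb was just under the fold threshold without replicate 1 of the 80 µg group (-0.99).

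Among 15 kinases, adaptors and SMADs, 2 were called between doses at 4 h (5.85% of all genes). At 12 h and 24 h, 2 each had an adjusted p under 0.05 in DESeq2 with a fold under the threshold. Smad3, which carries the TGF-beta signal, was higher with 80 µg (log2 1.18 ± 0.20, adjusted p = 2.94e-07) at the time when Tgfbr2 was lower. Tyk2, a kinase of several of these receptors, was lower (-1.01 ± 0.25, adjusted p = 0.000679), close to the fold threshold. Leaving out replicate 1 or 3 of the 0.8 µg group or replicate 3 of the 80 µg group at 4 h put Tyk2 under the threshold (-0.89, -0.96 and -0.83), and leaving out replicate 3 of the 0.8 µg group did so for Smad3 (0.99).

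Ligands were measured where the T cells make them. Lif, a cytokine that signals through gp130, held 9.08, 32.9 and 4.32 normalised counts with 0.8 µg at 4 h and 297, 203 and 254 with 80 µg. The groups were far apart (log2 3.62 ± 0.66, DESeq2 adjusted p = 2.56e-06), in the same libraries in which Il6st was highest. Ifng held 7.07, 5.27 and 0 with 0.8 µg at 4 h and 772, 122 and 52.3 with 80 µg (5.23 ± 0.76, adjusted p = 3.61e-09), while Ifngr1 was low with both doses. With only the samples compared, the Ifng difference at 4 h fell under the fold threshold. Of 16 ligands 5 were tested between doses at 4 h, and Lif and Ifng were the 2 called (5.85% of all genes).

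As a description over the 21 libraries, which fall into groups by dose and time, the genes whose rlog values were most alike were found for each member among 6632 genes (6633 for Il1r1). For Il7r these were Psen2, Gm45713 and Leprotl1 (Pearson r of 0.978, 0.971 and 0.969), for Ifngr1 Npc2, Atp6v1d and Selplg (0.981, 0.979 and 0.978), and for Il6ra Fchsd2, Pitpnc1 and Stk38 (0.97, 0.958 and 0.955). Il18r1 was most like S1pr1, Klf13 and A430078G23Rik (0.958, 0.956 and 0.949), and Il6st most like Gimap5, Arid5b and Rela (0.94, 0.933 and 0.918). Il1r1 had the weakest likeness of the 10, with Itpk1, Ldah and Rfk (0.817, 0.788 and 0.786). For Il4ra they were Mllt6, Degs1 and Zfp655 (0.951, 0.935 and 0.924), for Il27ra Zdhhc20, Phf20l1 and Ppp3ca (0.947, 0.935 and 0.934), for Tgfbr1 Mlxip, Mbtd1 and Ogt (0.929, 0.92 and 0.914), and for Tgfbr2 Gm42449, Atp1b1 and Parp4 (0.951, 0.949 and 0.945). Among the members themselves, Il7r was most like Il6ra (0.93), Il18r1 (0.923) and Ifngr1 (0.922).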

How the data were processed

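The authors deposited raw gene counts and log2 values (DESeq2 rlog) of 21 QuantSeq 3′ libraries. Per the labels and the study's methods, reads were trimmed with Bbduk, aligned with STAR 2.5.2a to GRCm38 and counted with HTSeq. The strand setting and annotation release were not given in the sources used here. Il4ra, Il6ra and Il27ra have an exon overlapping a gene on the opposite strand, and each of those genes held at most 5 counts in a library.

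Here, 15300 genes with at least 10 counts over all samples were fitted with DESeq2 1.42.0 (R 4.3.3), with 1 coefficient per group over all samples. The count minimum and the normal shrinkage follow the study's methods. The Wald and likelihood ratio tests were tried on simulated counts with a single dispersion, in which only genes with a mean of at least 20 counts were changed. That does not cover genes with lower counts or a larger spread. All 10 members passed the count minimum. Where every library of a group held at most 3 counts, a fold is a lower bound. p-values rest on the spread between mice, with the dispersion of each gene estimated over all groups in the fit and not only over the groups compared. edgeR 4.0.16, other scalings and filters, a replicate block and leaving out each library were tried. The named genes were the members, the tested partner chains, up to 2 called genes each way per dose comparison from each other list (mean of at least 20 normalised counts), and 3 genes like each member (mean of at least 50), with Il1rl1, Il1r2 and the markers added after their values were seen. The members and lists were chosen with earlier results of these data known.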

Additional observations from a re-analysis of the deposited data

Results flagged for a closer look

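The effect of dose differed between 4 h, 12 h and 24 h for 2 members by the likelihood ratio test in DESeq2. For Il7r (adjusted p = 0.0013) the log2 dose differences were 2.04, 0.36 and 0.78, and for Il6st (adjusted p = 2.42e-21) they were 1.66, 0.57 and -0.05. For Il27ra the doses did not overlap at 4 h, when 80 µg was lower in all libraries, nor at 12 h, when it was higher in all libraries, with 0.902 between those 2 log2 dose differences. That pattern was picked out by the lack of overlap, and the test of the difference itself did not pass (adjusted p = 0.156).

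The same test, which 10.4% of 9958 genes passed, passed for 1 of 7 partner chains tested, 5 of 14 other cytokine receptors, 2 of 15 kinases, adaptors and SMADs and 3 of 5 ligands, and for neither of 2 decoys. The 6 of these named in the text are given here, and 5 of them were named because they were called between doses at 1 or more times. For Il2rg (adjusted p = 2.18e-08) the dose difference went from -0.74 at 4 h to 0.28 at 24 h. For Ifng (adjusted p = 3.74e-07) it was 5.23, -2.04 and 1.28 at the 3 times. For Lif (adjusted p = 0.00121) it was 3.62, -0.69 and 0.43, and for Il12rb2 (adjusted p = 0.000105) 4.67, 1.33 and 2.79. For Il2ra (adjusted p = 4.41e-08) it was 1.65, 1.13 and 0.26. For Il10rb (adjusted p = 0.0184) it was -1.22, -0.83 and 0.07, and its adjusted p lay between 0.0612 and 0.0735 without 1 of 7 libraries (replicate 3 of the 0.8 µg or replicate 1 or 3 of the 80 µg group at 4 h, and replicate 1 or 2 of either dose at 24 h).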

How the results depend on the processing

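Under edgeR, DESeq2 with TMM factors, other count filters, a replicate block and a fit of only the samples compared, 815 of the members' values kept direction and side of the threshold, 7 gained and 8 lost a call, and 0 reversed. With only the samples compared, 2 members were called between doses at 4 h, 1 at 12 h and 1 at 24 h. In that fit 477, 139 and 78 genes in all were called at the 3 times. The members lost were Il18r1 and Tgfbr2 at 4 h and Il18r1 at 24 h. Other named genes fell under the threshold in that fit between doses, Ifng at 4 h (0.85 on the log2 scale), Tyk2 (-0.89) and Il10ra (0.98) at 4 h, with Il10rb just under it, Il12rb2 at 12 h (0.96), and Ifngr2 (-0.85) and Il10ra (0.81) at 24 h. The cause was not tested. The replicate block left 4, 1 and 2 members called between doses at the 3 times (611, 288 and 138 genes in all), and 903 genes with a changing dose effect. Replicate numbers were not taken as pairs in the main fit. In 0 of 13 comparisons did every pair correlate over 0.1 (mean r of 0.00484 for the same number and -0.0024 for different numbers). That rule asks for every pair at once, so it cannot exclude pairing in a given comparison.

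When 1 library at a time was left out, 3 to 5 members were called between 4 h and 12 h with 0.8 µg (2265 to 2521 genes in all). With 80 µg there were 4 to 6 (2873 to 2990 genes in all), and between doses at 24 h 1 to 3 (122 to 156 genes in all). From 4 h to 12 h with 80 µg, Il18r1 was called lower without replicate 2 at 4 h or replicate 1 at 12 h (-1.19 and -1.17). Il7r was called higher without replicate 1 at 12 h (1.06), and Il4ra lower without replicate 2 at 12 h (-1.03). Values near 0 changed sign, none of them with an adjusted p under 0.05, with these lowest and highest log2 values. Against control, Tgfbr1 ranged from -0.26 to 0.086 with 0.8 µg and from -0.10 to 0.25 with 80 µg at 4 h, Il1r1 from -0.37 to 0.68 with 80 µg at 4 h, and Il6st from -0.11 to 0.034 with 0.8 µg at 24 h. Between doses at 4 h, Il1rap ranged from -0.16 to 0.34 and Ifngr2 from -0.52 to 0.12. At 12 h, Il18r1 ranged from -0.47 to 0.27 and Tyk2 from -0.25 to 0.084. At 24 h, Il6st ranged from -0.12 to 0.025, Tgfbr2 from -0.042 to 0.33, Crlf2 from -0.0034 to 0.26, Il13ra1 from -0.18 to 0.74, Il1rap from -0.64 to 0.029, Lif from -0.12 to 0.92 and Il10rb from -0.013 to 0.16. Between times, Il6ra ranged from -0.050 to 0.24 and Tgfbr2 from -0.11 to 0.26 (0.8 µg, 12 h against 4 h), and Il6st from -0.031 to 0.23 (80 µg, 24 h against 12 h). At these depths a library with 0 counts allows up to 3, which limits Il1r1, Il1rl1 and Il18r1 in the lowest groups.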
